A study of Homo sapiens with 6 samples.

Results

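The fatty acid desaturases and elongases are the enzymes of the endoplasmic reticulum that add double bonds to fatty acyl-CoA and lengthen its chain. They were followed in HT1080 cells, an established human fibrosarcoma line, with and without the glycolytic enzyme gene PGK1. The members were taken by gene symbol from the deposited table of read counts: 5 desaturases (SCD, SCD5, FADS1, FADS2 and FADS3) and 5 elongases (ELOVL1, ELOVL4, ELOVL5, ELOVL6 and ELOVL7), 10 of 20610 symbols. Polyadenylated RNA was sequenced from 3 libraries labelled PGK1 knockout (KO), made with CRISPR-Cas9, and 3 labelled wild type (WT). No drug or time course is given in the labels, all 6 libraries carry the same batch label, and the sources used here leave unstated if the KO line is a single clone and if libraries stem from independent cultures. The p-values therefore reflect library-to-library spread alone, possibly technical, and a clone effect cannot be told apart from loss of PGK1. In bulk RNA, fewer cells with a transcript and less of it per cell also cannot be told apart.

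Fatty acid synthase releases saturated chains, mainly palmitate. SCD and SCD5 place a first double bond in such chains and make monounsaturated fatty acids, whereas FADS2 and FADS1 act in turn on essential fatty acids to make highly polyunsaturated ones, which are the chains that peroxidize in ferroptosis. Each elongase catalyses the condensation step that starts a round of chain growth, and the family members divide the work by chain length and saturation. In many cells SCD, FADS1, FADS2, ELOVL5 and ELOVL6 are known targets of the sterol-regulated transcription factors SREBP1 and SREBP2.

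Library totals were 30175903 to 43890830 counts in KO and 39150295 to 47047186 counts in WT. Levels are given as CPM, counts scaled to a library total times its TMM factor, a scaling factor that was 1.053 to 1.097 in KO and 0.921 to 0.929 in WT. PGK1 itself had 149, 151 and 165 CPM in KO libraries, against 1447, 1427 and 1407 CPM in WT libraries. KO library 3 lay furthest from its group, with Pearson correlations of log2 CPM of 0.993 and 0.994 to the other KO libraries, against 0.997 between those libraries and 0.997 to 0.998 among WT libraries. No library was a copy of another (chi-square per degree of freedom 3.69 or more in every pair). Of 8 mesenchymal markers, 7 were above 1 CPM in KO and 8 in WT, with summed levels of 4196 to 4879 CPM in KO and 14699 to 15173 CPM in WT, and their part in the results was not tested. Epithelial, haematopoietic, adipocyte and hepatocyte marker lists summed to at most 2.27 CPM in KO and 2.56 CPM in WT, with EPCAM, KRT5, ADIPOQ and TTR at 0 in all 6 libraries. Endothelial markers summed to 2.17 to 3.28 CPM in KO and 10.1 to 12 CPM in WT, and here too their part was not tested.

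The promoter windows of the members that fell the most, SCD and ELOVL5, and of the members that rose, ELOVL4 and ELOVL7, are shown here because these 4 genes mark the ends of the response described below. Each sequence holds the 250 bases before the RefSeq start (GRCh38.p14), 5′ to 3′ on the gene's strand. They lie at chr10:100346983-100347232 on the plus strand for SCD and, on the minus strand, at chr6:53348951-53349200 for ELOVL5, chr6:79947554-79947803 for ELOVL4 and chr5:60844270-60844519 for ELOVL7. Capitals mark CCAAT, the box bound by the factor NF-Y, or its complement ATTGG.
SCD: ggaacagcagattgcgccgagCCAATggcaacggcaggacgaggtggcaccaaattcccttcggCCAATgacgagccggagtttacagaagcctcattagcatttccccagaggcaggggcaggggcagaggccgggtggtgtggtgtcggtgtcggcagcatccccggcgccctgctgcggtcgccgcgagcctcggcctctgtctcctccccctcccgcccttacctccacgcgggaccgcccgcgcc
ELOVL5: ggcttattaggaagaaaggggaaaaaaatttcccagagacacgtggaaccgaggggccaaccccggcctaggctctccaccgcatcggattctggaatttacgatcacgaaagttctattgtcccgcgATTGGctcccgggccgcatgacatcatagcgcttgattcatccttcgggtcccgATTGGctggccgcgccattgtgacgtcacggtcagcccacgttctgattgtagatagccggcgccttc
ELOVL4: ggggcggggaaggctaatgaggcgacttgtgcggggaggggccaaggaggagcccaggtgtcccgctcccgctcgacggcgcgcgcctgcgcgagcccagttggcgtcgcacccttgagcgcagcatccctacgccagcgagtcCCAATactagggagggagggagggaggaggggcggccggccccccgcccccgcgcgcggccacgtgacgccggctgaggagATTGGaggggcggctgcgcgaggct
ELOVL7: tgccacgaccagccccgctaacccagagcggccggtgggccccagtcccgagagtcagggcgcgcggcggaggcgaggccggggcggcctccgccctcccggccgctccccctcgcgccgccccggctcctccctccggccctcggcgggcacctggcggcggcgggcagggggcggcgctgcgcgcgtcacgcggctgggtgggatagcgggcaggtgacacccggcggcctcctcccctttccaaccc

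Motifs were searched on both strands of the whole RefSeq window, from 250 bases before to 50 bases after the start, which was matched for 10 of 10 members, with 2 windows for FADS2. The windows of ELOVL6 (110198566 to 110198865) and FADS3 (61891496 to 61891795) lie inside these minus-strand genes. Their outermost starts, at 110199202 and 61892224, are outside the windows, so matches there are not at the outermost start. CCAAT was found in windows of 7 members, SCD, SCD5, FADS2, FADS3, ELOVL1, ELOVL4 and ELOVL5, and in 34.6% of all 35116 windows. SCD held 2 copies, starting 229 and 186 bases before the start, and ELOVL5 held 2 on the opposite strand, with their first bases 122 and 68 before it. The genes with the box included members that fell, ELOVL4, which rose, and ELOVL1, which was not called. The GC box GGGCGG, a site for Sp1, was found in windows of 9 members, all but ELOVL5, and in 45.0% of all windows. Members are counted by gene and the percentages by window, so these are unlike measures. FADS2 counts for both motifs through a single window, as its other window held neither. TCACNCCAC, a core of the sterol regulatory element, was found in 0 of 10 members and in 1.13% of all windows, which says only that these letters are not in these windows. Among the members, matches to different motifs shared letters only in ELOVL1, where CCAAT began 65 bases and a GC box on the opposite strand 69 bases before the start. A match describes the sequence and is not a measured site.

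All 5 desaturases were lower in KO, whereas the elongases moved in both directions: ELOVL5 and ELOVL6 fell, ELOVL4 and ELOVL7 rose, and ELOVL1 was not called. In all, 9 of 10 members passed an adjusted p of 0.05 in edgeR's quasi-likelihood test, beside 76.4% of the 13249 genes tested, so a call on its own does not set the members apart. By direction, 7 members were lower, beside 36.3% of all tested genes, and 2 were higher, beside 40.0%. Of the members, 5 were called with a log2 fold change of 1 or more in size, beside 31.0% of all tested genes. The CPM values of the groups did not overlap for 9 members, beside 79.2% of tested genes. The median log2 fold change was -0.90 over the 10 members and 0.05 over all tested genes, and it was -1.23 over the 5 desaturases and -0.12 over the 5 elongases. Scaling by library size alone shifted the median log2 fold change over all genes up by 0.22, and the 9 called members kept their direction there. Without KO library 3 all 10 members were called, with log2 fold changes from -2.47 for SCD to 0.88 for ELOVL7.

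**Figure D1:**
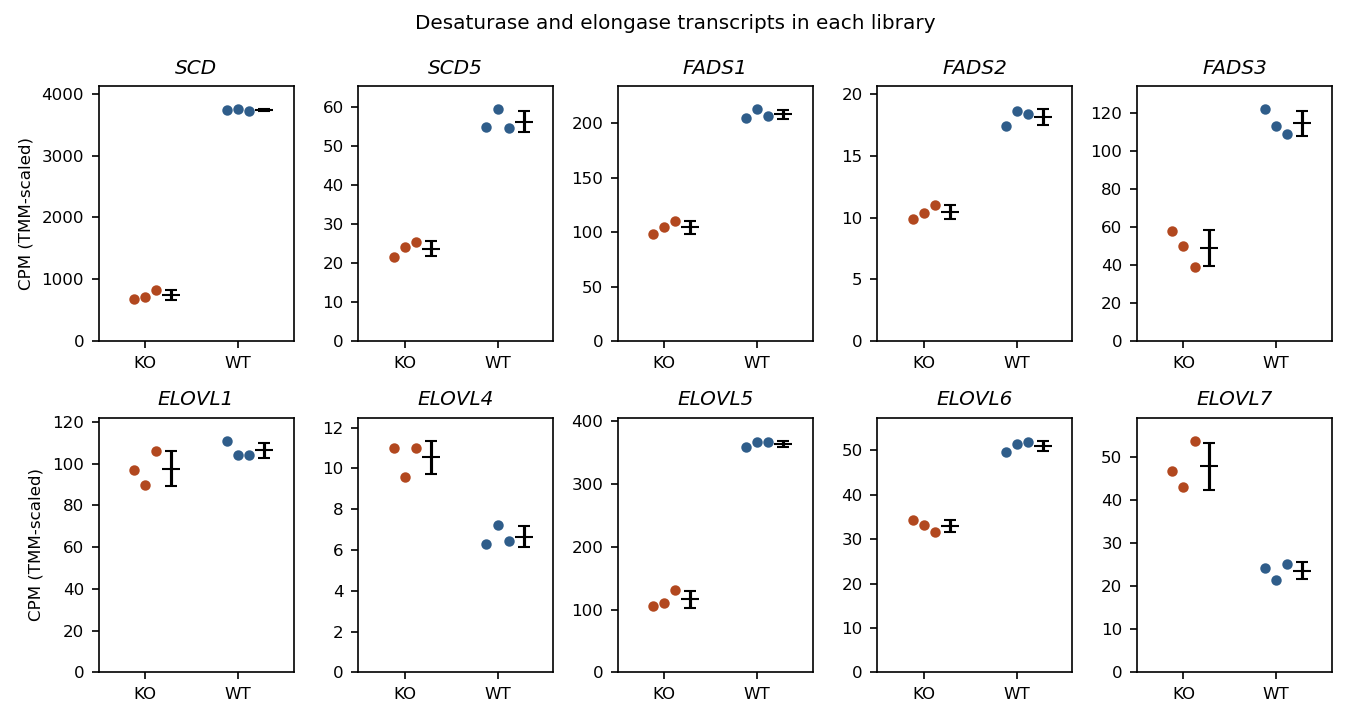
Each panel plots TMM-scaled CPM of a gene for the 3 KO libraries (left, orange) and the 3 WT libraries (right, blue), with mean and SD as black bars; every vertical axis starts at 0. Points of the groups are apart in every panel but that of ELOVL1, and only ELOVL4 and ELOVL7 are higher in KO.

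SCD, the stearoyl-CoA desaturase that makes oleate and palmitoleate, showed the largest fall of the 10 genes. It had 680, 712 and 832 CPM in KO libraries, against 3739, 3755 and 3732 CPM in WT libraries. The WT values hardly differ, KO library 3 is the highest of its group, and the groups lie far apart. SCD averaged 741 ± 79.9 CPM in KO and 3742 ± 11.6 CPM in WT (SD, n = 3 each), so KO held 19.8% of the WT level (log2 fold change -2.34, SE 0.076, adjusted p = 1.23e-12, edgeR). Of the 13249 genes tested, 403 had a lower log2 fold change than SCD. By the authors' FPKM, counts scaled for gene length and library total, SCD ranked 368 among all genes in KO and 85 in WT. It lies on chromosome 10 (100347233 to 100364826, GRCh38) and has a processed pseudogene, SCDP1, whose sharing of reads was not tested.

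SCD5, a paralog of SCD on chromosome 4 (82629539 to 82798796), fell less. Its level was 21.5, 24.0 and 25.4 CPM in KO libraries, against 54.8, 59.5 and 54.6 CPM in WT libraries. The lowest WT library stood at more than the highest KO library by a wide margin. The KO level was 42.0% of WT (log2 fold change -1.25, SE 0.076, adjusted p = 1.05e-09, edgeR). Within a library the ratio of SCD to SCD5 does not depend on the scaling between libraries. That FPKM ratio was 14.8 in KO and 31.5 in WT as geometric means, a difference of -1.09 on the log2 scale, with no overlap between groups (exact permutation test, 2-sided, p = 0.1, the smallest that 3 against 3 libraries allow).

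The FADS genes lie side by side on chromosome 11 and encode front-end desaturases, which carry their own cytochrome b5 domain. FADS1, the desaturase that completes arachidonate, had 98.2, 105 and 110 CPM in KO libraries, against 205, 213 and 207 CPM in WT libraries. It averaged 104.5 ± 5.97 CPM in KO and 208 ± 3.90 CPM in WT (SD, n = 3 each; log2 fold change -0.996, SE 0.054, adjusted p = 3.03e-10, edgeR). Every KO library was near the middle of the way between 0 and the WT level.

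FADS2, which performs the rate-limiting desaturation of linoleate and alpha-linolenate, was the least abundant desaturase. Its level was 9.91, 10.4 and 11 CPM in KO libraries, against 17.4, 18.6 and 18.4 CPM in WT libraries (log2 fold change -0.80, SE 0.093, adjusted p = 1.67e-06, edgeR). The groups do not overlap, and this was the smallest fall among the desaturases. FADS1 (61799627 to 61817003, minus strand) and FADS2 (61816203 to 61867354, plus strand) overlap head to head by 801 bases, and without a stated strand setting reads in that stretch could be counted for either gene. The FPKM ratio of FADS1 to FADS2 was 7.80 in KO and 8.95 in WT, a log2 difference of -0.20 with no overlap between groups (exact permutation test, 2-sided, p = 0.1).

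FADS3, the paralog that desaturates the sphingoid base of ceramides, varied most among KO libraries. It had 57.8, 50 and 38.9 CPM in KO libraries 1, 2 and 3, against 122, 113 and 109 CPM in WT libraries. KO library 3 is the lowest for FADS3, although it is the highest for SCD and ELOVL5. The coefficient of variation of FADS3 was 19.4% in KO and 5.75% in WT, beside medians over all tested genes of 8.30% in KO and 5.08% in WT. The KO level was 42.6% of WT (log2 fold change -1.23, SE 0.136, adjusted p = 9.80e-05, edgeR), and without KO library 3 the log2 fold change was -1.13. The ratio of FADS2 to FADS3 depended on that library: its log2 difference was 0.45 over all libraries and 0.26 without KO library 3.

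**Figure D2:**
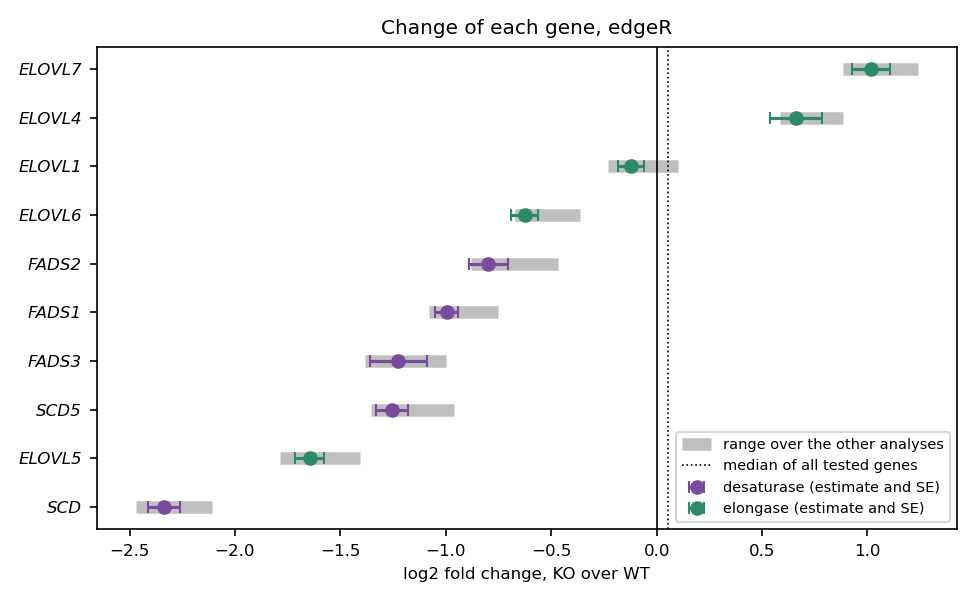
Points give the log2 fold change (KO over WT) of each gene with its SE, coloured by enzyme class, and grey bands give the range over the other analyses run. All 5 desaturases lie left of 0 with their bands, ELOVL4 and ELOVL7 lie right of it, and the band of ELOVL1, from -0.23 to 0.10, crosses it.

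Of the elongases, ELOVL5 and ELOVL6 fell. ELOVL5, which elongates polyunsaturated fatty acids between the steps of FADS2 and FADS1, had 106, 111 and 131 CPM in KO libraries, against 358, 367 and 366 CPM in WT libraries. It averaged 116 ± 13.2 CPM in KO and 363.5 ± 5.09 CPM in WT (SD, n = 3 each), which puts KO at 32.0% of WT. The log2 fold change was -1.65 (SE 0.070, adjusted p = 5.52e-11, edgeR), next to SCD in size among the 10 genes.

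ELOVL6, which lengthens palmitate to stearate and so supplies SCD with substrate, had 34.4, 33.1 and 31.7 CPM in KO libraries, against 49.7, 51.5 and 51.9 CPM in WT libraries. The groups are apart, with little spread in either. KO held 64.7% of the WT level (log2 fold change -0.63, SE 0.064, adjusted p = 3.94e-07, edgeR). The FPKM ratio of SCD to ELOVL6 was 19.9 in KO and 65.3 in WT, a log2 difference of -1.71 with no overlap between groups (exact permutation test, 2-sided, p = 0.1). The ratio of ELOVL5 to ELOVL6 was 6.56 in KO and 13.3 in WT, also without overlap (log2 difference -1.02, exact permutation test, 2-sided, p = 0.1).

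Of the elongases, ELOVL4 and ELOVL7 rose. ELOVL7, which prefers saturated acyl-CoA, had 46.6, 42.9 and 53.7 CPM in KO libraries, against 24.2, 21.4 and 25.1 CPM in WT libraries. The lowest KO library stood well above the highest WT library. It averaged 47.7 ± 5.47 CPM in KO and 23.6 ± 1.91 CPM in WT (SD, n = 3 each), a 2.03-fold rise (log2 fold change 1.02, SE 0.090, adjusted p = 8.91e-08, edgeR).

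ELOVL4, which builds the very long chains of skin, retina and brain lipids, was the least abundant elongase. It had 11, 9.59 and 11 CPM in KO libraries, against 6.28, 7.24 and 6.46 CPM in WT libraries. The groups are apart, although the level is low in both. The rise was 1.58-fold (log2 fold change 0.66, SE 0.123, adjusted p = 0.000187, edgeR).

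ELOVL1, which makes the very long saturated chains of sphingolipids, was not called. It had 96.8, 89.9 and 106 CPM in KO libraries, against 111, 104 and 104 CPM in WT libraries, and the groups overlap. Its log2 fold change was -0.12 (SE 0.064, adjusted p = 0.0924, edgeR), and it turned to 0.10 with scaling by library size alone (adjusted p = 0.128). Without KO library 3 it was called lower (log2 fold change -0.23, adjusted p = 0.000118, edgeR). Ratios to it need no scaling: ELOVL1 to ELOVL7 was 3.90 in KO and 8.59 in WT by FPKM, and ELOVL4 to ELOVL1 was 0.0525 in KO and 0.0304 in WT, neither with overlap between groups (exact permutation test, 2-sided, p = 0.1 for each). Over all 8 pairs of members compared, the adjusted p was 0.1.

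By FPKM, which allows levels of different genes to be compared, the order of the members differed between the groups. In KO the order from high to low was SCD, ELOVL1, ELOVL5, FADS3, FADS1, ELOVL7, SCD5, ELOVL6, ELOVL4 and FADS2, with means from 146 to 3.57 FPKM. There FADS3 and FADS1 did not differ beyond their spread (29.4 ± 6.21 and 27.9 ± 1.20 FPKM, SD, n = 3), nor did ELOVL4 and FADS2 (3.72 ± 0.254 and 3.57 ± 0.125 FPKM). In WT it was SCD, ELOVL5, ELOVL1, FADS3, FADS1, SCD5, ELOVL6, ELOVL7, FADS2 and ELOVL4, with means from 633.5 to 2.02 FPKM and no overlap between neighbours. ELOVL5 and ELOVL1 changed places: ELOVL5 had 48.2 ± 4.41 FPKM in KO and 129 ± 2.36 FPKM in WT, and ELOVL1 had 70.8 ± 4.45 FPKM in KO and 66.1 ± 2.09 FPKM in WT.

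SCD outweighed the other desaturases in both groups. The summed FPKM of the 5 desaturases was 210, 216 and 226 in KO libraries, against 764, 771 and 763 in WT libraries, so KO held 28.3% of the WT sum. The elongases summed to 145, 141 and 159 FPKM in KO libraries, against 214, 214 and 216 FPKM in WT libraries, or 69.0%. These sums are scaled by library total without the TMM factors. Their percentages of WT are thus not on the CPM scale used above for single genes. The ratio of the desaturase sum to the elongase sum was 1.47 ± 0.0586 in KO and 3.57 ± 0.0305 in WT (SD, n = 3 each; exact permutation test, 2-sided, p = 0.1).

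Within the classes the shares of summed FPKM shifted. Shares of a class depend on each other: where SCD or ELOVL5 takes less of a sum, the other members together take more. FADS1 and FADS3 held larger shares in KO although their levels fell, so the tests of single shares are not separate results. SCD made up 67.3% ± 3.28 of the desaturase sum in KO and 82.7% ± 0.324 in WT (SD, n = 3 each), FADS1 12.9% ± 0.319 in KO and 6.23% ± 0.105 in WT, and FADS3 13.7% ± 3.33 in KO and 7.71% ± 0.417 in WT. ELOVL5 made up 32.5% ± 1.57 of the elongase sum in KO and 60.2% ± 0.981 in WT, ELOVL1 47.8% ± 1.01 in KO and 30.8% ± 1.04 in WT, and ELOVL7 12.3% ± 0.391 in KO and 3.59% ± 0.281 in WT. These shares did not overlap between groups (exact permutation test, 2-sided, p = 0.1 for each; adjusted 0.1 over the desaturases and 0.125 over the elongases). The share of ELOVL6 overlapped, at 4.97% ± 0.569 in KO and 4.52% ± 0.108 in WT (exact permutation test, 2-sided, p = 0.4).

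**Figure D3:**
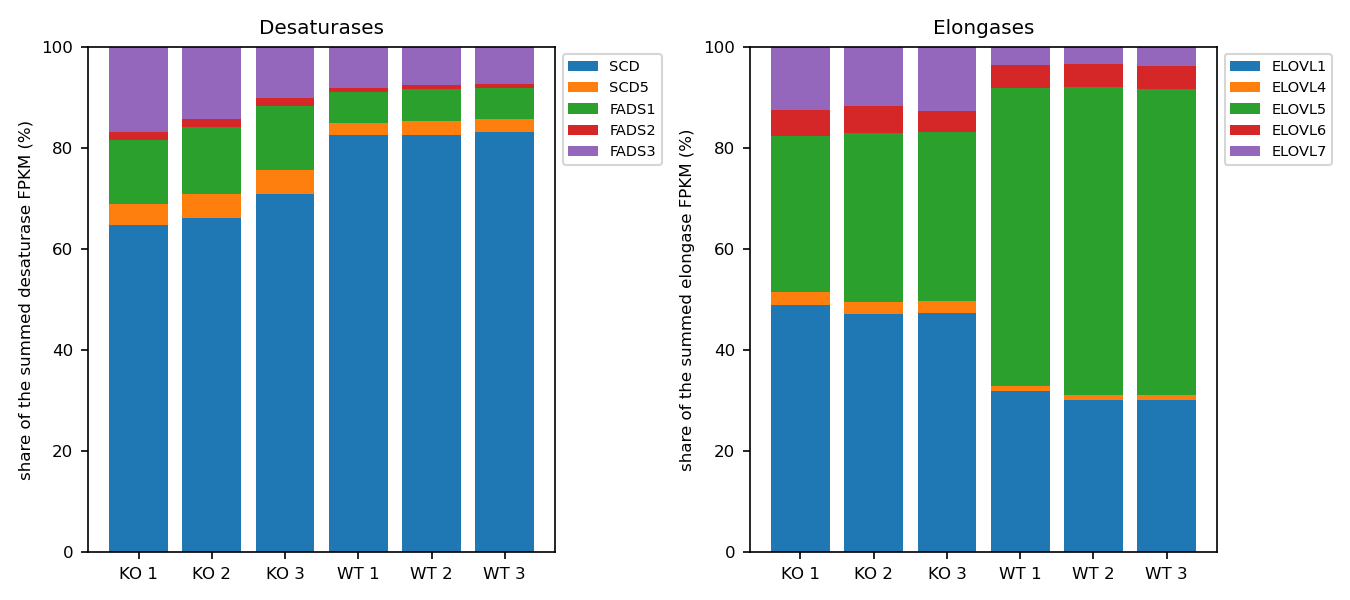
Stacked bars give, for each library (3 KO, then 3 WT), the share in percent of each gene in the summed FPKM of the desaturases (left) and of the elongases (right). SCD takes 64.7% to 71.0% in KO and 82.5% to 83.1% in WT, and the share of ELOVL5 is 30.7% to 33.4% in KO and 59.1% to 60.9% in WT.

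The genes around the FADS cluster did not all move with it. The stretch from MYRF to FTH1 spans 214999 bases of chromosome 11. MYRF, a membrane-bound transcription factor gene on the near side of FADS1, fell to 15.8 ± 1.07 CPM in KO, against 47 ± 1.15 CPM in WT (SD, n = 3 each; log2 fold change -1.57). TMEM258, a subunit of oligosaccharyltransferase, fell as well (log2 fold change -1.03), but FEN1, the flap endonuclease next to FADS1, rose to 66.5 ± 6.71 CPM in KO, against 46.8 ± 1.08 CPM in WT (log2 fold change 0.51).

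On the far side of FADS3, RAB3IL1, an exchange factor for Rab proteins, had 38.1 ± 2.57 CPM in KO and 15.2 ± 0.792 CPM in WT (SD, n = 3 each; log2 fold change 1.33). BEST1, a chloride channel, was low in both groups, with 2.37 ± 0.400 CPM in KO and 0.518 ± 0.116 CPM in WT (log2 fold change 2.18), and it overlaps FTH1, so its reads are uncertain. FTH1, the ferritin heavy chain, had 2950, 2909 and 3592 CPM in KO libraries, against 876, 877 and 878 CPM in WT libraries (log2 fold change 1.85), and has processed copies elsewhere that could share reads. All 6 neighbours passed the test (edgeR, adjusted p from 2.70e-11 to 1.47e-05), 4 higher and 2 lower, beside 76.4% of all tested genes called, 40.0% higher and 36.3% lower, so this count does not set the locus apart.

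**Figure D4:**
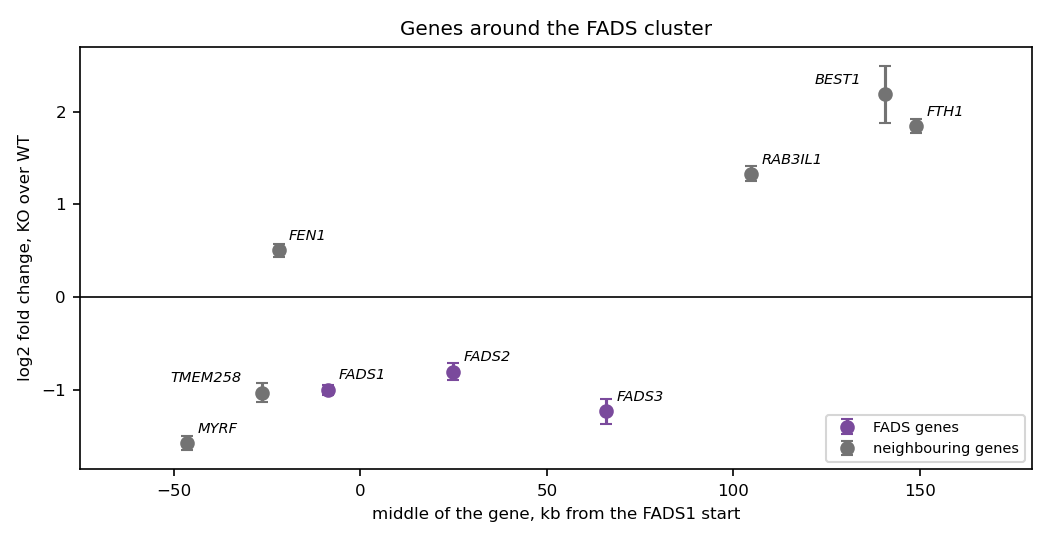
Points give log2 fold changes (KO over WT) with SE for the 3 FADS genes and 6 neighbours, plotted by the distance of each gene's middle from the FADS1 start in kb. FADS1, FADS2 and FADS3 lie between -0.80 and -1.23, with FEN1 at 0.51 on one side and RAB3IL1 at 1.33 on the other.

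Other desaturases and elongases were few. Of 5 listed, 2 passed the filter on low counts. ELOVL2, which lengthens polyunsaturated chains beyond the reach of ELOVL5, had 3.99, 3.59 and 3.62 CPM in KO libraries, against 8.64, 8.80 and 9.29 CPM in WT libraries (log2 fold change -1.25, SE 0.137, adjusted p = 8.14e-07, edgeR). The ceramide desaturase DEGS1 was not called (98.0 ± 3.47 CPM in KO and 90.3 ± 3.44 CPM in WT, SD, n = 3 each). FADS6 had 0 counts and ELOVL3 1 count in all 6 libraries together.

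For the remaining steps of the elongation cycle, 6 of 8 listed genes were tested (median log2 fold change -0.35). Among them 3 fell, beside 36.3% of all tested genes, 1 rose, beside 40.0%, and 2 were not called. Without KO library 3 all 6 were called, 1 higher and 5 lower. With scaling by library size alone 2 were higher and 3 lower, and with limma on the authors' FPKM 3 were higher and 3 lower. TECR, the reductase that ends each round, fell to 27.6 ± 3.01 CPM in KO, against 50.6 ± 1.78 CPM in WT (SD, n = 3 each; log2 fold change -0.88). HSD17B12, the ketoacyl-CoA reductase, fell to 121 ± 5.53 CPM in KO, against 179.5 ± 6.59 CPM in WT (log2 fold change -0.57). The dehydratases split: HACD1 fell (log2 fold change -1.27), HACD2 rose (0.29) and HACD3, the most abundant by CPM, had 139 ± 9.15 CPM in KO and 140 ± 3.84 CPM in WT. The list also holds ACOT7, a thioesterase that removes CoA, which was not called (log2 fold change -0.12).

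The list of electron donors of the desaturases holds 6 cytochrome b5 and reductase genes, not all of the endoplasmic reticulum. Of these, 4 rose, beside 40.0% of all tested genes, and 2 fell, beside 36.3%. The median log2 fold change was 0.49, which does not describe the donors of the endoplasmic reticulum alone. With a filter of 1 CPM in 3 libraries 5 were tested, 3 higher and 2 lower. With scaling by library size alone, or limma on the authors' FPKM, 4 were higher and 1 lower. CYB5B, the outer mitochondrial cytochrome b5, had 86.1, 77.7 and 96.1 CPM in KO libraries, against 44.3, 46.2 and 44.4 CPM in WT libraries (log2 fold change 0.94, SE 0.073, adjusted p = 1.76e-08, edgeR). CYB5R4 rose (log2 fold change 0.75) and CYB5R1 fell (-0.71). CYB5R3, the most abundant of the list by CPM, rose slightly, with 164 ± 12.4 CPM in KO and 141 ± 6.28 CPM in WT (SD, n = 3 each; log2 fold change 0.22, adjusted p = 0.0039, edgeR). CYB5A, the form of the endoplasmic reticulum, was low, with 4.91 ± 0.832 CPM in KO and 6.88 ± 0.238 CPM in WT (SD, n = 3 each; adjusted p = 0.0109, edgeR, and 0.00383 to 0.158 over the other analyses).

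Enzymes that supply the chains were split. Of 11 genes listed, 10 were tested (median log2 fold change 0.05), and 5 to 8 were called as each library was left out. In the main analysis 4 rose, beside 40.0% of all tested genes, 3 fell, beside 36.3%, and 3 were not called. This split does not set the list apart. SLC25A1, the mitochondrial citrate carrier, fell to 22.9 ± 2.55 CPM in KO, against 166 ± 7.47 CPM in WT (SD, n = 3 each; log2 fold change -2.86, SE 0.076). FASN, which builds palmitate, had 879, 921 and 968 CPM in KO libraries, against 2903, 2616 and 2684 CPM in WT libraries (log2 fold change -1.57). OLAH, a thioesterase that frees shorter chains from fatty acid synthase, had 929, 601 and 643 counts in KO libraries, against 0, 4 and 2 in WT libraries. ACSS2 had no counts in any library and lies on chromosome 20, where 50.6% of symbols in the table had none, against 14.1% elsewhere, so its value was not read.

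Regulators moved in both directions. Of 18 genes of SREBP and LXR control, 17 were tested (median log2 fold change -0.28). Among them 5 rose, beside 40.0% of all tested genes, 8 fell, beside 36.3%, and 4 were not called. In all 13 were called, beside 76.4%, so the number called does not set the list apart. With scaling by library size alone, or limma on the authors' FPKM, 7 were higher and 6 lower. INSIG1, which holds SREBP in the endoplasmic reticulum when sterols are plentiful and is itself an SREBP target, had 47.7, 47.8 and 45.9 CPM in KO libraries, against 427, 436 and 433 CPM in WT libraries (log2 fold change -3.20, SE 0.052, adjusted p = 1.59e-15, edgeR). SREBF2, which encodes SREBP2, fell to 224 ± 8.47 CPM in KO, against 784 ± 23.1 CPM in WT (SD, n = 3 each; log2 fold change -1.80).

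SREBF1, which encodes SREBP1, the form tied most to fatty acid genes, went the other way. It had 83.0, 80.1 and 89.0 CPM in KO libraries, against 54.6, 52.2 and 50.3 CPM in WT libraries (log2 fold change 0.68, SE 0.062, adjusted p = 9.78e-08, edgeR). NFYA, a subunit of NF-Y, rose to 68.5 ± 2.86 CPM in KO, against 24.8 ± 1.97 CPM in WT (SD, n = 3 each; log2 fold change 1.47). SCAP, the escort of SREBP, was only slightly lower (log2 fold change -0.16, adjusted p = 0.00908, edgeR), and its sign turned with library size alone (0.06). Processing of SREBP proteins was not measured.

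**Figure D5:**
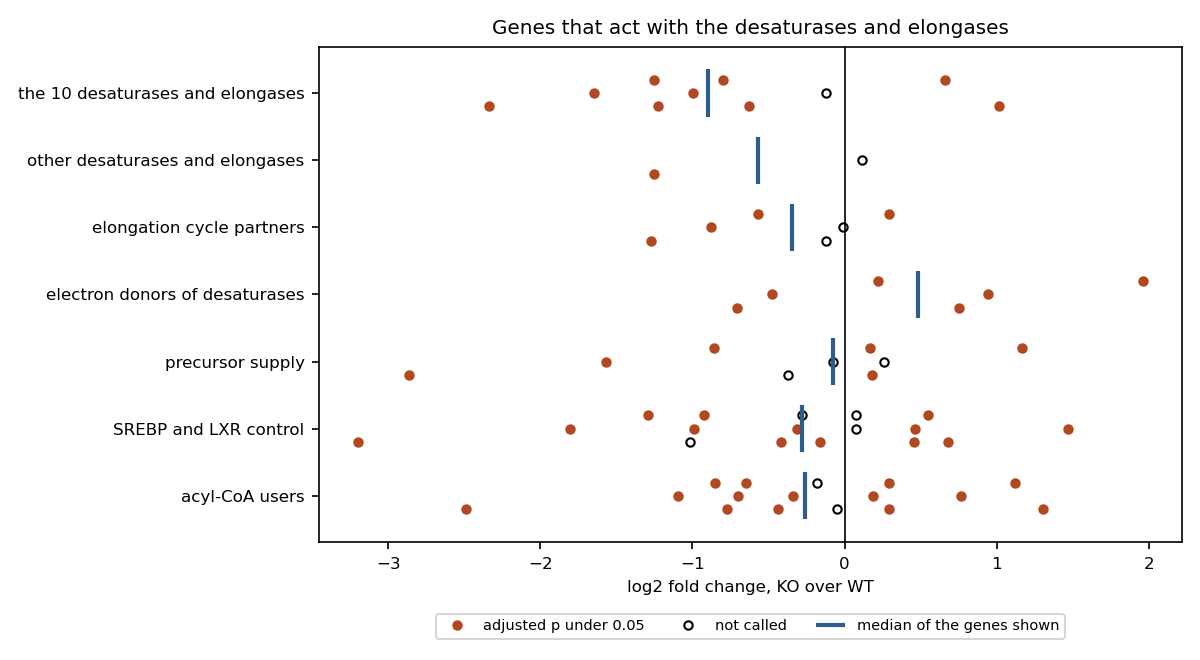
Each point is a tested gene placed by its log2 fold change (KO over WT), in rows by gene list; filled points passed an adjusted p of 0.05, open points did not, and blue lines mark the median of the genes shown. OLAH, at 8.44, is left out of the plot, so the precursor median drawn is below the 0.05 of the whole list. The 10 desaturases and elongases have a median of -0.90. The list of electron donors, which also holds the mitochondrial CYB5B, has a median of 0.49.

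The genes whose profiles over the 6 libraries lay nearest to those of SCD and ELOVL5 were found by Euclidean distance between log2 CPM values, each centred on its own mean, among 8949 other genes with a mean of at least 10 CPM. For SCD they were PACS1, a sorting protein of the trans-Golgi network (distance 0.0628), SORT1, the sorting receptor sortilin (0.0914), and VGF, a secreted neuropeptide precursor (0.0926). PACS1 had 39.0, 39.0 and 47.1 CPM in KO libraries, against 216, 211 and 208 CPM in WT libraries, with KO library 3 the highest of its group as for SCD. For ELOVL5 they were NBAS, of transport between Golgi and endoplasmic reticulum (0.0881), SPTBN1, a spectrin (0.104), and OSTF1 (0.116). With 2 groups of 3 libraries this likeness mostly records the size of the difference between KO and WT.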

How the data were processed

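RNA from 3 KO and 3 WT libraries was analysed from the deposited tables. The authors deposited read counts per gene symbol and FPKM values. Per the submitters' processing notes, fastp, HISAT and the build hg38 were used; the sources used here do not name versions, counter, annotation or strand setting. The authors' FPKM were found to be these counts scaled by library total and a constant length for each of 17521 detected genes (relative tolerance 1e-06), so they add no independent measurement.

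Counts were tested with edgeR 4.0.16 in R 4.3.3 (quasi-likelihood F-test, TMM, filterByExpr, robust dispersion, group as the only term; tested on simulated data). The p-values were adjusted by Benjamini-Hochberg over all 13249 tested genes, and the threshold was 0.05. All 10 members passed the filter. Ratios and shares of FPKM were compared with 2-sided exact permutation tests (scipy 1.17.1). Alternatives were other scalings, filters and dispersion settings, a replicate block, each library left out, DESeq2 1.42.0, limma 3.58.1 (voom, or log2(FPKM + 1) and log2(FPKM + 0.1)), a pseudocount of 0.1 FPKM and a shorter promoter window.

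The members and lists were chosen with earlier results of these data known. The text names all members, PGK1, up to 3 genes of smallest p per list with set regulators and cycle partners, all neighbours of the FADS genes, and the 3 genes most like SCD and ELOVL5. CYB5A, CYB5R3, DEGS1, ACSS2, ACOT7, FADS6 and ELOVL3 were named after their values were seen. A further gene counted in the precursor list is not reported here. Coordinates and promoters are from RefSeq on GRCh38.p14.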

Additional observations from a re-analysis of the deposited data

How the results depend on the processing

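Of 170 combinations of a member and another analysis, 166 kept the direction and the side of the threshold. The exceptions all concern ELOVL1, whose log2 fold change turned to 0.099 with library size alone, 0.096 with limma on log2(FPKM + 1) and 0.098 with limma on log2(FPKM + 0.1), and which was called without KO replicate 3. With each library left out in turn, 9 to 10 members were called. Asking also for a log2 fold change of 1 or more in size left 5 members and 4104 genes in all. Among the other desaturases and elongases, 2 rather than 1 were called, as DEGS1 was then higher, with upper-quartile factors, library size alone, a filter of 1 CPM in 3 libraries, and both limma fits to FPKM. By direction, 6613 of all genes were higher and 3781 lower with library size alone, against 5301 and 4815 with TMM. Called acyl-CoA users numbered 14 of 16 tested in the main analysis, 16 of 18 without KO replicate 3, 17 of 20 with no filter and 16 of 20 with DESeq2. None of the 136 recomputed ratios and shares changed direction, though without division by length the share of FADS3 differed by 2.57 percentage points, against 5.94 by FPKM, and that of ELOVL6 by 1.63, against 0.454. From 150 bases before to 50 after the start, 6 members held CCAAT and 7 GGGCGG.

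Same-numbered KO and WT libraries did not deviate together (correlations of deviations from the group means -0.0108, 0.0191 and -0.0329). This gave no sign that the numbers pair the samples, but it cannot exclude pairing. With the replicate block 9 members and 9986 of all genes were called. With 3 libraries a group the exact tests cannot go below 0.1, and 1 count corresponded to 0.0209 to 0.0315 CPM.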

Other observations

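Genes that use the products of desaturases and elongases also split. Of 20 acyl-CoA users listed, 16 were tested, with a median log2 fold change of -0.26. Among them 6 rose, beside 40.0% of all tested genes, 8 fell, beside 36.3%, and 2 were not called (edgeR, adjusted p under 0.05). MBOAT2, an acyltransferase that places monounsaturated chains in phospholipids, fell to 17.2 ± 0.595 CPM in KO, against 96.8 ± 1.46 CPM in WT (SD, n = 3 each; log2 fold change -2.49). ACSL4, which activates polyunsaturated fatty acids, fell to 113 ± 9.88 CPM in KO, against 241 ± 5.71 CPM in WT (log2 fold change -1.10). LPCAT1, which remodels phosphatidylcholine with saturated chains, fell to 78.9 ± 0.988 CPM in KO, against 143 ± 4.61 CPM in WT (log2 fold change -0.86).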
